A study of Mus musculus with 45 samples.

Results

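The days around birth were described here by setting mouse ventricles at 3 days after birth (day 3) against ventricles shortly before birth, at embryonic stage E18.5, on 12 of the 45 arrays of the study. These were all the arrays labelled day 3 or E18.5, with 3 from the left and 3 from the right ventricle at each stage. Left and right ventricle of the same replicate number were averaged, which gave 3 values per stage, and the right ventricles were also compared alone. All tissue came from wild type mice of the outbred CD1 strain. A day 3 sample, which the labels call newborn, held 1 heart, and an E18.5 sample held 3 to 5 pooled hearts. The newborn hearts were frozen and pulverised before RNA extraction, which the labels do not say of E18.5, so that stage, handling and pooling cannot be told apart. The study followed expression through heart development, from embryonic stem cells to the adult. Expression is given as log2 values after robust multi-array average (RMA) processing, for 1 probe set per gene. Every difference is day 3 minus E18.5, so that 1 is a 2-fold difference.

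At birth the heart leaves the low oxygen pressure of the placental circulation, and milk brings a supply of fat. Cardiomyocytes, which rely mainly on glucose and lactate before birth, come to burn long-chain fatty acids. Peroxisome proliferator-activated receptors (PPARs) are nuclear receptors that bind fatty acids and switch on genes of lipid use. Hypoxia-inducible factors, which are degraded when oxygen is ample, maintain genes of glucose uptake and glycolysis in the fetal heart. In rodents the main ventricular myosin heavy chain also changes around this time, and cardiomyocytes leave the cell cycle soon after birth.

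Several E18.5 arrays carried RNA of other tissues, as judged by marker gene lists. The 17 liver markers measured averaged 4.65 to 4.77 on the 6 day 3 arrays, against 6.47, 9.42 and 6.25 in E18.5 left ventricles 1, 2 and 3 and 5.70, 4.74 and 4.59 in E18.5 right ventricles 1, 2 and 3. Albumin (Alb) lay between 4.50 and 5.11 at day 3 but reached 13.06 in E18.5 left ventricle 2, and it was 8.68 in E18.5 right ventricle 1. The 10 markers of the epicardium, the outer layer of the heart itself, averaged 7.55 to 7.94 at day 3, against 8.80, 8.88 and 8.16 in E18.5 left ventricles and 7.24 to 7.48 in E18.5 right ventricles. Of the 10 cardiomyocyte markers, 0 passed the test described below, and their average was 13.50 to 13.61 at day 3 and 13.25 to 13.59 at E18.5. In 6 of these 10 genes the 3 replicate values of day 3 all lay above those of E18.5, against 23.3% of all genes, at levels near the top of the scale, where arrays can understate differences. Sex-linked genes varied between the day 3 hearts. Xist, transcribed from the inactive X chromosome of females, read 5.96, 10.63 and 6.13 in day 3 left ventricles and 5.29, 10.45 and 6.21 in day 3 right ventricles, against 9.51 to 11.30 on the E18.5 arrays. The Y-linked gene Uty read 6.43, 5.18 and 6.58 in day 3 left ventricles and 6.42, 5.34 and 6.60 in day 3 right ventricles, against 5.92 to 6.15 at E18.5. Replicate 2 of day 3 was thus high for Xist and low for Uty in both ventricles, the reverse of replicates 1 and 3. In tissue RNA, fewer cells of a type and less RNA per cell cannot be told apart.

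**Figure D1:**
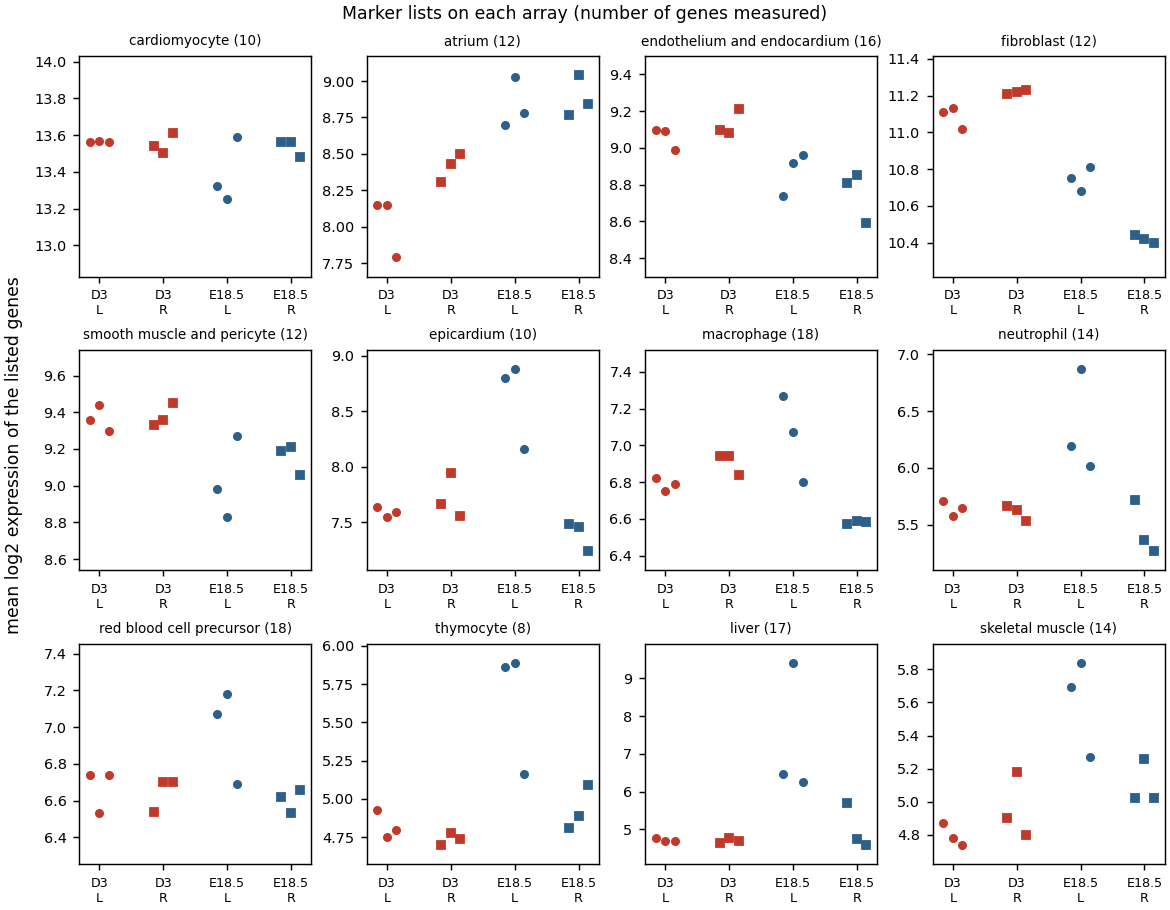
Mean log2 expression of 12 marker lists on each of the 12 arrays, day 3 left of E18.5 and left ventricle left of right within each stage, with 1 point per array and the number of genes measured in each title. The liver list stands at 9.42 in E18.5 left ventricle 2, against 4.65 to 4.77 at day 3, while the cardiomyocyte list stays between 13.25 and 13.61 on all 12 arrays.

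A gene was called higher or lower where its adjusted p in limma (a linear model fitted over all genes, with Benjamini-Hochberg adjustment) was under 0.05. Of 18193 genes, 3682 (20.2%) were called, 1809 (9.94%) higher at day 3 and 1873 (10.3%) lower. The change was at least 2-fold in 285 of them (1.57%), 153 higher and 132 lower. Right ventricles alone gave 2819 calls (15.5%), of which 1436 (7.89%) were higher and 1383 (7.60%) lower, and 279 (1.53%) at least 2-fold, 182 higher and 97 lower. Left ventricles alone gave 3499 calls (19.2%), 1659 (9.12%) higher and 1840 (10.1%) lower. Without the array of E18.5 left ventricle 2, 3602 genes (19.8%) were called, 1743 (9.58%) higher and 1859 (10.2%) lower. Of the 3682 genes, 2261 were also called in the right ventricles in the same direction and 0 in the opposite direction. When each array was scaled to 22 housekeeping genes, 3834 genes (21.1%) were called, 1171 (6.44%) higher and 2663 (14.6%) lower, so that 30.5% of the calls were higher, in place of 49.1%. This scaling moved the median difference of all genes to -0.05, against 0.01 without it. The 22 housekeeping genes themselves averaged 11.83 to 11.88 at day 3 and 11.78 to 11.80 at E18.5. Before scaling, 4 of them were called higher and 3 lower. The 3 values of day 3 all lay above those of E18.5 in 23.3% of genes and below in 21.7%. Counts of list members below are to be read against these shares, and a list's median against 0.01.

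The 12 largest rises and 12 largest falls were taken from genes called in the averages and, in the same direction, in right ventricles alone. Their replicates were also required not to overlap. Both the calls in right ventricles and the lack of overlap therefore follow from the choice. Larger falls in the averages that right ventricles alone did not pass, such as Alb (-3.97) and Fga (-2.98), are not among the 12. Fbp2, which encodes the fructose bisphosphatase of muscle, had replicate values of 8.98, 9.06 and 9.13 at day 3, against 5.76, 5.82 and 5.54 at E18.5, and rose 10.2-fold (3.35 ± 0.16, log2 difference ± SE of the fit, limma adjusted p = 1.16e-12). The replicates of each stage lay close together and the stages were far apart. Angptl4, Pdk4, Plin5, Ucp3 and Slc25a34, genes of lipid use described in the next paragraphs, were also among the 12 largest rises. Pcolce2, whose product enhances procollagen processing, rose by 2.76 ± 0.21, and the metalloreductase gene Steap4 by 2.61 ± 0.14. The others were Klhdc8a (2.64 ± 0.14), the tubulin gene Tuba8 (2.60 ± 0.11), Paqr9 (2.48 ± 0.12) and Rpl3l (2.24 ± 0.13), a ribosomal protein gene of striated muscle.

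Among the 12 largest falls, Ankrd63 came first, with 5.92, 5.59 and 5.80 at day 3, against 8.33, 8.22 and 8.42 at E18.5 (-2.55 ± 0.19, limma adjusted p = 1.02e-09). Abat, an enzyme gene of GABA breakdown, fell by 2.15 and the smooth muscle calponin gene Cnn1 by 2.00. The G protein subunit gene Gng2 (-1.86) fell in 4 of 4 probe sets. Gtsf1 (-1.84), known from the small RNA pathway of mouse germ cells, and the muscle calpain gene Capn3 (-1.75) also fell. Myl4, Bdh1, Myh7, Dlk1, Slc2a1 and Eno2 make up the 12 and are described with their groups. For Steap4, Abat, Myl4 and Dlk1 only 1 of 2 probe sets passed the test.

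**Figure D2:**
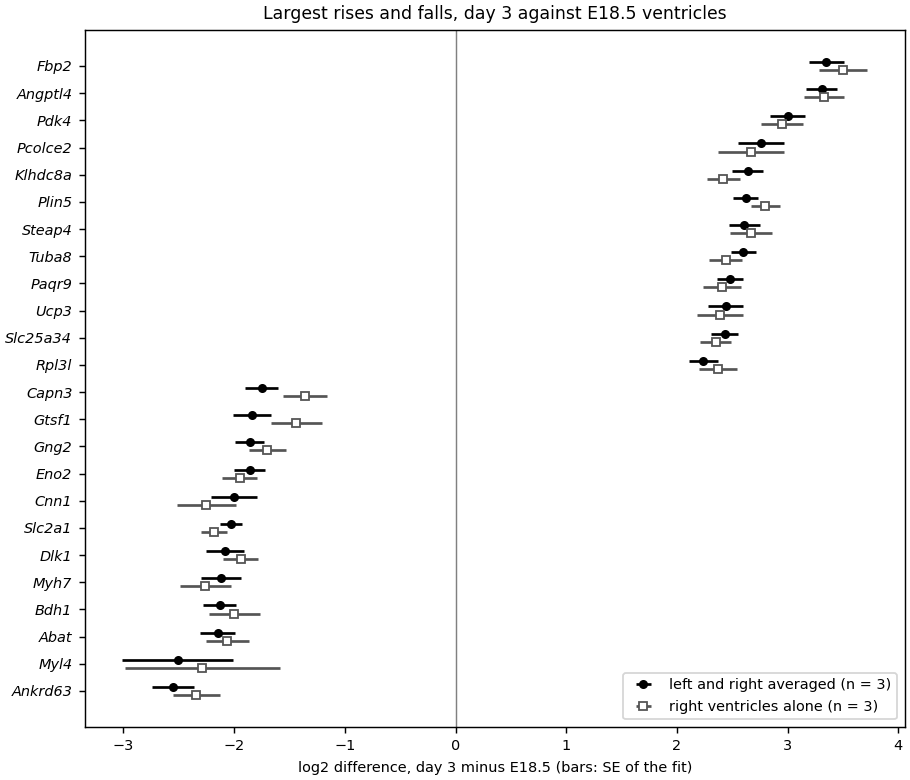
The 12 largest rises and the 12 largest falls, as the log2 difference of day 3 minus E18.5, with the SE of the fit. Both ventricles averaged and right ventricles alone are drawn for each gene, and the choice of genes required a call in the same direction in both. The averages run from 3.35 (Fbp2) to -2.55 (Ankrd63).

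Genes that PPARs are known to switch on rose as a group. Of 22 such genes measured, 18 were called higher and 0 lower, with a median difference of 1.19, and right ventricles alone gave 17 higher and 0 lower. Angptl4, which encodes a secreted inhibitor of lipoprotein lipase, measured 10.42, 10.64 and 10.73 at day 3, against 7.23, 7.40 and 7.21 at E18.5, and rose 9.95-fold (3.31 ± 0.14, limma adjusted p = 1.64e-13). Pdk4, whose product is a kinase that shuts off pyruvate dehydrogenase, measured 11.76, 11.89 and 11.99 at day 3, against 8.71, 8.88 and 9.04 at E18.5, and rose 8.01-fold (3.00 ± 0.16, limma adjusted p = 4.93e-12). In both genes every day 3 value stood well above every E18.5 value. Plin5, which encodes a coat protein of lipid droplets, measured 10.26, 10.19 and 10.37 at day 3, against 7.46, 7.79 and 7.71 at E18.5 (2.62 ± 0.11, limma adjusted p = 1.89e-13). Ucp3, a carrier of the inner mitochondrial membrane, measured 8.26 ± 0.06 at day 3 and 5.82 ± 0.21 at E18.5 (SD, n = 3 each here and below; 2.44 ± 0.16, limma adjusted p = 1.90e-10). Angptl4, Pdk4, Plin5 and Ucp3 are among the largest rises, so that stages without overlap follow from their choice. Cidea, a lipid droplet gene, measured 10.70, 10.68 and 10.67 at day 3, against 8.49, 8.49 and 8.52 at E18.5, and rose 4.54-fold (limma adjusted p = 3.42e-10).

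Of the other PPAR targets, the mitochondrial carrier gene Slc25a34 rose by 2.43 ± 0.12 (log2), and the carnitine-acylcarnitine carrier gene Slc25a20 rose 2.36-fold. Acot1 and Acot2, thioesterase genes so alike in sequence that probes may not tell them apart, read 2.11 and 1.69 higher at day 3. The acyl-CoA dehydrogenase genes Acadl and Acadm rose by 0.54 and 0.40. Fabp3, the heart fatty acid binding protein gene, read 14.79 ± 0.02 at day 3 and 14.20 ± 0.02 at E18.5, but with the SE of 0.34 that the fit takes from all stages its adjusted p in limma was 0.255. Ehhadh (0.09), Acaa1a (0.29) and Acaa1b (-0.13), enzymes of peroxisomal oxidation, did not pass the test either. The receptor gene Ppara was not among the rises: it measured 7.60, 7.67 and 7.90 at day 3, against 8.33, 8.31 and 8.23 at E18.5, and fell by 0.57 (limma adjusted p = 0.00232). Its coactivator gene Ppargc1a fell by 0.58 (limma adjusted p = 0.00653), while Rxrg, a retinoid X receptor gene, rose by 1.75 (limma adjusted p = 1.27e-08).

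Fat tissue around the heart expresses several of these genes, so its markers were read beside them. Ucp1, the brown fat uncoupling protein gene, was 3.51 ± 0.07 at day 3 and 3.51 ± 0.09 at E18.5, near the lowest values on the arrays, and the white fat gene Adipoq was 3.11 ± 0.14 at day 3 and 3.29 ± 0.15 at E18.5. Of 8 brown fat markers 2 were called higher (Cidea and the potassium channel gene Kcnk3, which is also expressed in heart) and 1 lower (Ppargc1a). Of 8 white fat markers 2 were higher, the lipase gene Lipe (1.02 ± 0.13) and Lep (0.35 ± 0.11), which encodes leptin. The averages of the white fat list were 5.82 to 6.07 at day 3 and 5.59 to 5.73 at E18.5, and those of the brown fat list 6.63 to 6.88 at day 3 and 6.34 to 6.66 at E18.5. The part of fat cells in the PPAR target values was not tested.

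The promoters of 3 risen PPAR targets are printed to show the receptor's binding half-site, AGGTCA, which on the other strand reads TGACCT, in capitals. They are the 3 that changed most among the called members with 1 annotated start and the motif. Members on 1 chromosome were passed over in this choice. Some called members outside these conditions, such as Cidea, changed more than Cpt1a and are not printed. Each sequence is the 250 bases before the start of the gene in RefSeq's annotation of GRCm38.p6, 5′ to 3′ on the gene's strand: Ucp3 at chr7:100472741-100472990 on the plus strand, Slc25a34 at chr4:141623835-141624084 on the minus strand and Cpt1a at chr19:3323051-3323300 on the plus strand.
Ucp3: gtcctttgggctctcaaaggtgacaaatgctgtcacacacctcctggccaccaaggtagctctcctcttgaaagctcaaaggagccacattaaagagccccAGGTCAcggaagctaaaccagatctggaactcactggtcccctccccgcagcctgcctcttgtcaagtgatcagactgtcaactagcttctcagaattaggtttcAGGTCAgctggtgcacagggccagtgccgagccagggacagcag
Slc25a34: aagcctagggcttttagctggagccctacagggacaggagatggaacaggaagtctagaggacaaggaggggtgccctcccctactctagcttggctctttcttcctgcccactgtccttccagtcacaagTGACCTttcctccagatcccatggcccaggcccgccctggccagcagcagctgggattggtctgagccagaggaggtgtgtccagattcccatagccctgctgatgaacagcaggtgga
Cpt1a: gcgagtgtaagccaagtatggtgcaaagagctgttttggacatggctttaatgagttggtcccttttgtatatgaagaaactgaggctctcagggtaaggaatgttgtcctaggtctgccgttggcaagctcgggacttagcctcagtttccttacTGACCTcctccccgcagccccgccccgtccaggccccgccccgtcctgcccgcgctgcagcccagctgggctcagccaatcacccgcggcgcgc
The Slc25a34 match begins 119 bases before the start, and the Cpt1a match 94 bases before it. Of the 20 PPAR targets with such a window 7 held the motif on either strand, against 4260 (15.8%) of the 27025 genes with a window, and these 7 were all among the 16 called members with a window. A match is only a run of letters, and no match says only that the letters are not in this window.

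The wider list of fatty acid uptake and oxidation, which shares Cpt1a, Cd36, Mlycd and other genes with the PPAR list, had 24 of 33 members higher and 2 lower, with a median of 0.65. Right ventricles alone gave 23 higher and 2 lower. Decr1, the reductase gene for unsaturated fatty acids, measured 12.80, 12.77 and 12.77 at day 3, against 11.18, 11.21 and 11.17 at E18.5, and rose 3.01-fold (1.59 ± 0.09, limma adjusted p = 7.64e-12). The replicates of a stage differed by only hundredths of a log2 unit. Cpt1a, whose product commits long-chain fatty acids to mitochondrial uptake, measured 10.05, 9.99 and 10.32 at day 3, against 8.82, 8.86 and 8.93 at E18.5 (1.25 ± 0.18, limma adjusted p = 1.95e-05). Cpt2, on the inner membrane, rose by 1.39, the fatty acid transporter gene Slc27a1 by 1.47, and Mlycd, which encodes the enzyme that removes the Cpt1 inhibitor malonyl-CoA, by 1.28. The 2 members that fell are acyl-CoA synthetase genes, Acsl3 (-0.61 ± 0.08) and Acsl5 (-0.30 ± 0.08).

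Genes of the mitochondrial core moved less than those of lipid use. In the tricarboxylic acid cycle 9 of 19 genes were higher and 0 lower (median 0.20), but only 3 were higher in right ventricles alone. Ogdh, a subunit gene of the oxoglutarate dehydrogenase complex, read 12.08 ± 0.17 at day 3 and 11.26 ± 0.18 at E18.5 and rose by 0.82. Aco1 (0.38), Dlst (0.33) and the citrate synthase gene Cs (0.33) were called higher in the averages but not in right ventricles alone, and for Dlst 1 probe set was called higher and 1 lower. Of 50 genes of the electron transport chain and ATP synthase, 15 were higher and 3 lower (median 0.12), or 7 higher and 3 lower with housekeeping scaling. Ndufv1 (0.48) and Ndufa10 (0.35) of complex I, the muscle cytochrome oxidase subunit gene Cox6a2 (0.35) and the ATP synthase gene Atp5g1 (0.34) led them, while Cox8a fell by 0.25 and the selected probe set of Cox7c by 0.77.

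Among 24 regulators of mitochondrial biogenesis 3 were higher and 6 lower. Besides Ppara and Ppargc1a, the mitochondrial DNA helicase gene Twnk (-0.47) and the transcription factor gene Tfb2m (-0.37) fell, whereas Polrmt, the mitochondrial RNA polymerase gene, rose by 0.47. Of 47 mitochondrial ribosomal protein genes 0 were higher and 3 lower, led by Mrps30 (-0.28). Ketone body genes did not move together. Bdh1, which encodes the mitochondrial dehydrogenase that interconverts the ketone bodies, measured 5.10, 5.88 and 5.53 at day 3, against 7.66, 7.63 and 7.60 at E18.5, and was 4.39-fold lower (-2.13 ± 0.15, limma adjusted p = 5.11e-10). Oxct1, the enzyme gene that commits ketone bodies to oxidation, fell by 0.31, and the monocarboxylate transporter gene Slc16a1 rose by 0.25. In creatine and energy transfer, the mitochondrial creatine kinase gene Ckmt2 read 12.42 ± 0.08 at day 3 and 11.20 ± 0.28 at E18.5 and rose by 1.23, the creatine transporter gene Slc6a8 by 0.56, and Ak1 by 0.47. Gamt, whose product makes creatine, fell by 0.60. In all 4 of 14 genes of that list were higher and 2 lower.

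Glycolytic genes fell in part. Of 22 measured, 12 were lower and 3 higher (median -0.24), and right ventricles alone gave 12 lower and 2 higher (median -0.45). Slc2a1, the glucose transporter gene of fetal heart, measured 8.51, 9.01 and 8.97 at day 3, against 10.88, 10.82 and 10.89 at E18.5, and was 4.09-fold lower (-2.03 ± 0.10, limma adjusted p = 2.01e-12), in 3 of 3 probe sets. Day 3 replicate 1 was the lowest of the 6 values, and the stages did not overlap, as the choice of the largest falls required. Slc2a3, another glucose transporter gene, measured 6.52 ± 0.19 at day 3 and 8.17 ± 0.10 at E18.5 (-1.64 ± 0.11, limma adjusted p = 3.26e-10). Eno2, the neuronal form of enolase, measured 5.17 ± 0.11 at day 3 and 7.03 ± 0.09 at E18.5, and was 3.63-fold lower (limma adjusted p = 1.08e-09). The lactate exporter gene Slc16a3 was 3.02-fold lower and the phosphoglycerate mutase gene Pgam1 2.17-fold lower.

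The glycolytic genes that rose are the forms of adult muscle: the insulin-dependent transporter gene Slc2a4 (10.13 ± 0.02 at day 3, 9.59 ± 0.06 at E18.5, limma adjusted p = 0.00252), the phosphofructokinase gene Pfkm (0.58 ± 0.10) and the enolase gene Eno3 (0.35 ± 0.11). The counterparts Pfkl and Pfkp fell by 0.61 and 0.67. The hexokinase genes Hk1 (-0.26, limma adjusted p = 0.322) and Hk2 (-0.03, limma adjusted p = 0.895) did not pass the test. Of 15 genes of glycogen metabolism 0 were higher and 6 lower. Stbd1, whose product tethers glycogen, fell by 1.46, the liver form of glycogen phosphorylase (Pygl) by 1.38, Ppp1r3c, which targets a phosphatase to glycogen, by 1.17, and Gyg, the primer of glycogen synthesis, by 0.60. Red cells carry Slc2a1 in some species and stages: the 18 red cell precursor markers averaged 6.53 to 6.74 at day 3, against 6.69 to 7.18 in E18.5 left ventricles and 6.53 to 6.66 in E18.5 right ventricles. In right ventricles alone Slc2a1 fell by 2.18. The part of red cells in the Slc2a1 values was not tested.

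Around pyruvate dehydrogenase, 4 of 12 genes were higher and 3 lower. The kinase genes diverged: beside the 8.01-fold rise of Pdk4, Pdk1 measured 10.68, 10.71 and 10.79 at day 3, against 11.40, 11.41 and 11.45 at E18.5 (-0.69 ± 0.13, limma adjusted p = 5.47e-04), and Pdk3 fell by 0.55. Subunit genes of the complex read higher, with Dlat at 0.48, Pdhx at 0.25 and Pdhb at 0.20, but Pdhx and Pdhb were not called in right ventricles alone.

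Genes of the hypoxia response fell. Of 27 measured, 19 were lower and 1 higher (median -0.63). Right ventricles alone, which are part of the averages, gave the same counts with a median of -0.74. Left ventricles alone gave 16 lower and 1 higher, with a median of -0.47. Slc2a1 and Aldoc, which are on both this list and that of glycolysis, were 4.09-fold and 2.76-fold lower. Egln3, an oxygen-sensing hydroxylase gene that hypoxia-inducible factors induce, measured 9.11, 9.32 and 9.17 at day 3, against 10.77, 10.70 and 10.81 at E18.5, and was 2.95-fold lower (-1.56 ± 0.11, limma adjusted p = 2.86e-10). Every day 3 value stood below every E18.5 value. The mitophagy receptor gene Bnip3 measured 11.69, 11.77 and 11.65 at day 3, against 12.78, 12.81 and 12.73 at E18.5 (-1.07 ± 0.11, limma adjusted p = 1.28e-07). The adenylate kinase gene Ak4 fell by 1.36, although of its 5 probe sets 2 were lower and 1 higher. Ndrg1 was lower in 5 of 5 probe sets (-1.24 ± 0.26), Pfkfb3 (-1.04), an activator of glycolysis, and the vascular growth factor gene Vegfa (-0.28) fell. Car9, Pfkfb4, Egln1, Higd1a, Adm and Hk2 lay between -0.43 and -0.03 and did not pass the test.

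The genes of the hypoxia-inducible factors themselves did not move together. Epas1, also called HIF-2 alpha and abundant in endothelium, measured 11.55, 11.64 and 11.70 at day 3, against 10.42, 10.45 and 10.67 at E18.5, and was the 1 member that rose (1.12 ± 0.24, limma adjusted p = 0.00203). Hif3a, whose short forms inhibit the pathway, measured 8.06, 7.79 and 8.06 at day 3, against 9.09, 9.06 and 9.20 at E18.5 (-1.14 ± 0.11, limma adjusted p = 8.32e-08). Hif1a read 11.62 ± 0.15 at day 3 and 11.40 ± 0.17 at E18.5 and did not pass the test (limma adjusted p = 0.284). These factors are regulated mainly through protein stability, which arrays do not measure.

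The promoters of 3 fallen members are printed to show the core of the hypoxia response element, ACGTG, which on the other strand reads CACGT, in capitals. They were chosen, and are given, as those above: Slc2a1 at chr4:119108495-119108744 on the plus strand, Egln3 at chr12:54203875-54204124 on the minus strand and Bnip3 at chr7:138909507-138909756 on the minus strand, from RefSeq's annotation of GRCm38.p6.
Slc2a1: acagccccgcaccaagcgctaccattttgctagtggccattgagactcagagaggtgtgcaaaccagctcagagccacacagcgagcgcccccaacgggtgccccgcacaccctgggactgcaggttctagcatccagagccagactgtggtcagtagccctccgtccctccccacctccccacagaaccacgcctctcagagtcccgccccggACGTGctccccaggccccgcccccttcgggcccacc
Egln3: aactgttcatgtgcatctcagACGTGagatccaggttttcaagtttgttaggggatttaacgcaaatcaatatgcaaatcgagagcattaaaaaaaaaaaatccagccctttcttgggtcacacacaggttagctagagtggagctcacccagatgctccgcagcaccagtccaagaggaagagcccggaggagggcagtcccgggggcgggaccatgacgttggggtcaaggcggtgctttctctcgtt
Bnip3: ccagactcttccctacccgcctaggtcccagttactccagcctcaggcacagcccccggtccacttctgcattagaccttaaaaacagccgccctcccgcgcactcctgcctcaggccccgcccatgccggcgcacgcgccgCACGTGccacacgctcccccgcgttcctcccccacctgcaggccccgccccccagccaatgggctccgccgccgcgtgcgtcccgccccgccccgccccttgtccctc
The match begins 36 bases before the start in Slc2a1 and 229 bases before it in Egln3. In Bnip3 the capitals cover 2 overlapping matches on opposite strands. Of the 25 list members with a window 18 held the motif, against 4998 of the 27025 genes with a window, and 14 of the 18 called members with a window did. These counts describe letters near the start and not binding.

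**Figure D3:**
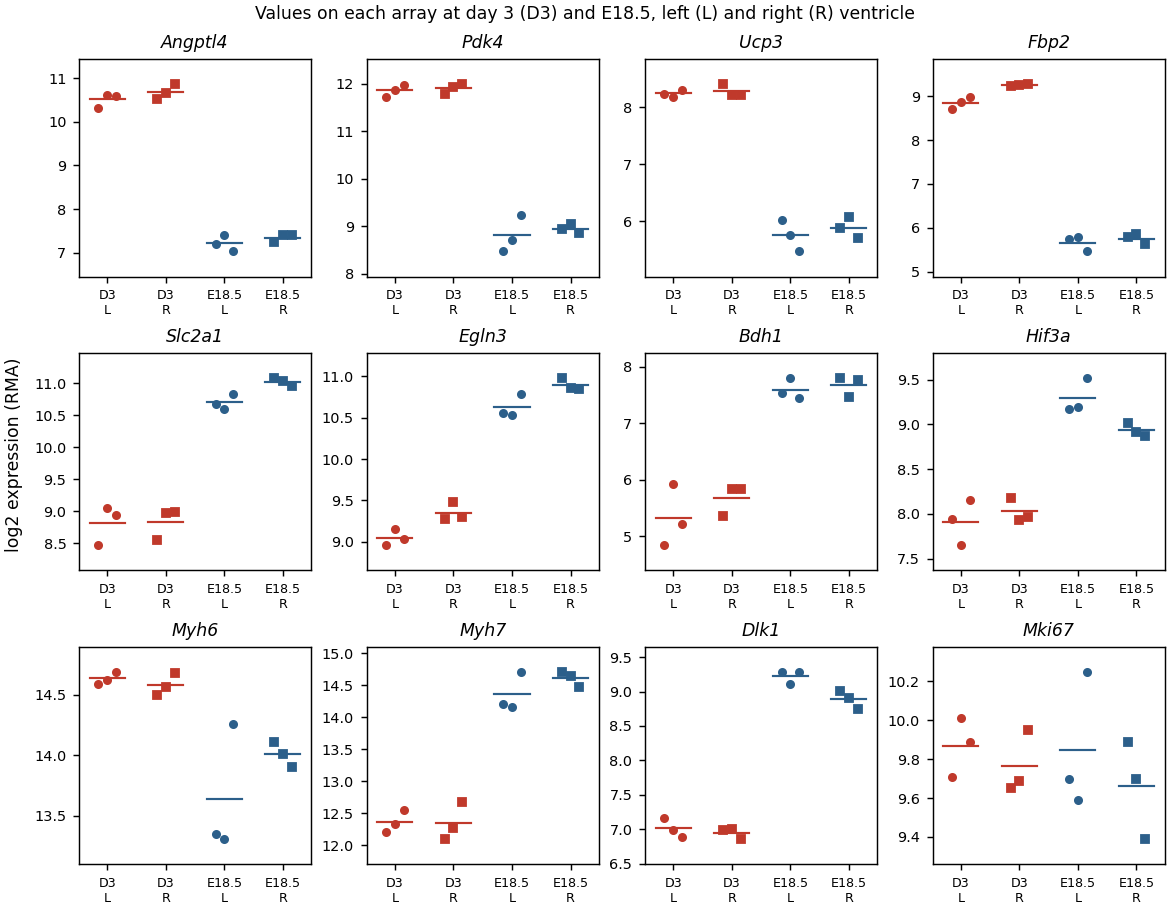
Log2 expression of single genes on each of the 12 arrays, with day 3 left of E18.5, left and right ventricles drawn apart and lines at the group means. Arrays of a stage lie close together for the PPAR targets and hypoxia-responsive genes, and day 3 and E18.5 do not overlap for Angptl4, Pdk4 or Slc2a1. Averages of left and right ventricle that do not overlap were a condition of choosing these genes among the largest changes.

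The myosin heavy chains moved in opposite directions. Myh7, the slow form that dominates the fetal ventricle, measured 12.15, 12.30 and 12.61 at day 3, against 14.45, 14.39 and 14.59 at E18.5, and was 4.36-fold lower (-2.12 ± 0.18, limma adjusted p = 1.01e-08). Myh6, the fast form of adult rodent ventricle, measured 14.54, 14.59 and 14.69 at day 3, against 13.73, 13.66 and 14.08 at E18.5, and rose by 0.78 ± 0.12 (limma adjusted p = 4.21e-05). In neither gene did the stages overlap, which for Myh7 was a condition of its choice among the largest falls. Values near the top of the scale, as these are, can understate differences. The troponin I genes, whose switch from Tnni1 to Tnni3 is a mark of maturation, were not called: Tnni1 read 14.13 ± 0.04 at day 3 and 14.47 at E18.5 (limma adjusted p = 0.219), and Tnni3 read 14.38 ± 0.02 at day 3 and 14.20 ± 0.02 at E18.5 (limma adjusted p = 0.231). Tnni1 thus read lower and Tnni3 higher at day 3, the direction of that switch. As for Fabp3, the fit takes its SE from all stages, so that a missed call does not show equal levels.

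Of 14 fetal sarcomere genes 6 were lower and 2 higher (median -0.32), or 4 lower and 1 higher in right ventricles alone. Of 14 adult sarcomere genes 3 were higher and 0 lower: Myom2, the M-band protein myomesin 2 (0.84), Myh6 and Tcap, which encodes telethonin (0.69). Among 27 Z-disc and M-band genes 7 were higher and 1 lower, with Myot (1.16) and the actin filament gene Lmod2 (0.50) among the rises and Myoz1 (-0.83) as the fall, but right ventricles alone gave 4 higher and 3 lower. The atrial light chain genes fell. Myl4 measured 10.17, 10.46 and 9.96 at day 3, against 12.74, 12.79 and 12.58 at E18.5 (-2.51 ± 0.50, limma adjusted p = 8.56e-04). Myl7 measured 10.02, 10.44 and 10.15 at day 3, against 12.49, 12.78 and 12.46 at E18.5 (-2.38 ± 0.57, limma adjusted p = 0.00436), but right ventricles alone gave -1.71 with an adjusted p of 0.118. By array Myl7 was 8.74 to 9.71 in day 3 left ventricles and 10.61 to 11.56 in day 3 right ventricles, against 12.08 to 12.93 on the E18.5 arrays. Of the 12 atrium markers 6 were lower and 1 higher, against 1 lower and 1 higher in right ventricles alone, and how much atrial tissue each sample held was not tested. Acta1, the skeletal actin gene, rose by 1.06 and Tpm2 by 0.59, though Acta1 was not called in right ventricles alone.

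Calcium handling, channel and natriuretic genes changed singly. Of 29 calcium handling genes 2 were higher and 4 lower. Sln, which encodes the atrial calcium pump inhibitor sarcolipin, fell by 2.15 (limma adjusted p = 0.00548), but was not called in right ventricles alone, and Casq1, the skeletal calsequestrin gene, fell by 1.05. The T-type channel gene Cacna1h fell by 0.82 and the kinase gene Camk2g by 0.44, while the membrane repair gene Dysf rose by 0.89 and Hrc, a calcium-binding protein gene of the sarcoplasmic reticulum, by 0.78. Of 24 ion channel and connexin genes 4 were higher and 2 lower, led by Kcnk3 (2.14-fold higher) and the sodium channel subunit gene Scn4b (1.75-fold higher). Of 8 natriuretic peptide and stress genes 0 were higher and 2 lower. Corin, the protease gene that activates natriuretic peptides, fell by 0.97, and the clearance receptor gene Npr3 by 0.63. The peptide genes themselves overlapped between stages, Nppa with 13.45 ± 0.29 at day 3 and 13.03 ± 0.21 at E18.5 (limma adjusted p = 0.456) and Nppb with 12.94 ± 0.18 at day 3 and 13.13 ± 0.07 at E18.5 (limma adjusted p = 0.634).

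Genes of cell division were little changed between these stages. The proliferation marker gene Mki67 measured 9.68, 9.85 and 9.92 at day 3, against 9.80, 9.64 and 9.82 at E18.5, and the stages overlapped (limma adjusted p = 0.802). Of 35 mitosis and cytokinesis genes 1 was higher and 3 lower: Ect2, a cytokinesis gene, fell by 0.79, and the spindle kinase genes Bub1 and Aurka by 0.36 and 0.29. Of 39 DNA replication genes 5 were higher and 0 lower, but housekeeping scaling gave 1 higher and 2 lower, so that no direction is given for the list. Of 9 D-type cyclin genes and their partners 0 were higher and 4 lower: Myc (-1.03), Ccnd3 (-0.76), Cdk4 (-0.40) and Cdk2 (-0.32). Of 19 cell cycle inhibitors 7 were lower and 2 higher, against 3 lower and 1 higher in right ventricles alone. Cdkn1c, an imprinted inhibitor gene, measured 9.72, 9.75 and 9.71 at day 3, against 11.24, 11.23 and 10.96 at E18.5 (-1.42 ± 0.10, limma adjusted p = 2.86e-10). The pocket protein gene Rbl2 fell by 0.89, while Gadd45a and Ccng1, both induced by p53, rose by 0.66 and 0.46. Meis1, known to restrain cardiomyocyte division in mice, read 8.43 ± 0.09 at day 3 and 8.46 ± 0.11 at E18.5 (limma adjusted p = 0.936).

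Imprinted growth genes fell. Of 18 measured, 8 were lower and 0 higher (median -0.50), and right ventricles alone gave 7 lower and 0 higher. Dlk1, a paternally expressed gene of the Notch ligand family, measured 7.08, 6.99 and 6.87 at day 3, against 9.15, 9.01 and 9.01 at E18.5, and was 4.22-fold lower (limma adjusted p = 7.49e-09). Peg3 fell by 0.97 and the maternally expressed noncoding gene Rian by 0.86. Igf2, the fetal growth factor gene, read 13.07 ± 0.05 at day 3 and 13.67 ± 0.03 at E18.5 and fell by 0.60 (limma adjusted p = 0.00533), which right ventricles alone did not show as a call (-0.51, adjusted p = 0.0643). Its clearance receptor gene Igf2r fell by 0.75. In the IGF system 6 of 17 genes were lower and 2 higher, against 2 lower and 2 higher in right ventricles. The binding protein genes Igfbp2 (-1.67), Igfbp1 (-1.61) and Igfbp3 (-1.02) fell. Igfbp1 is also a liver gene and read -0.22 in right ventricles alone. Igfbp2 changed by -2.51 in left and by -0.83 in right ventricles, with E18.5 means of 7.16 in left and 5.81 in right ventricles. Igfbp7 rose by 1.11. Of 8 oncofetal genes 3 were lower and 1 higher: Hmga2 fell by 0.89, Igf2bp1 by 0.51 and Igf2bp3 by 0.27, and Arid3a rose by 0.45. Lin28b, at 2.96 ± 0.03 at day 3 and 3.01 ± 0.06 at E18.5, was near the lowest values at both stages.

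Genes that respond to glucocorticoid and thyroid hormone were lower in part. Of 22 measured, 11 were lower and 1 higher (median -0.52). Right ventricles alone gave 9 lower and 1 higher with a median of -0.22, and the averages without E18.5 left ventricle 2 gave the same counts with a median of -0.28. Klf15, a glucocorticoid-induced factor gene of muscle metabolism, measured 6.96, 6.83 and 6.99 at day 3, against 8.36, 8.42 and 8.32 at E18.5 (-1.44 ± 0.10, limma adjusted p = 3.26e-10). Per1, a clock gene that glucocorticoids also induce, measured 6.65, 6.63 and 6.55 at day 3, against 7.95, 7.90 and 8.09 at E18.5 (-1.37 ± 0.13, limma adjusted p = 7.21e-08). Neither gene's stages overlapped. The chaperone gene Fkbp5 fell by 0.91, and the metallothionein gene Mt2 by 0.85. The gene of the glucocorticoid receptor itself, Nr3c1, was the rise, by 0.62 ± 0.11. The hour of collection is not in the labels, and of 18 clock genes 0 were higher and 3 lower, Per1, Bhlhe40 (-0.66) and Hlf (-0.47).

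Among stress genes, 7 of 23 heat shock and folding genes were lower and 2 higher. Hsph1 fell by 0.71, Dnajb1 by 0.52 and the mitochondrial chaperonin gene Hspe1 by 0.46, while the small heat shock gene Hspb6 rose by 0.98. Of 24 genes of the ATF4 and amino acid response 5 were higher and 6 lower. Atf3 fell by 0.99 and the serine pathway genes Shmt2 and Psat1 by 0.68 and 0.57, and Chac1 rose by 0.74. Of 29 antioxidant genes 3 were higher and 4 lower, with the catalase gene among the rises and the glutathione transferase gene Gstm2 (-0.66) among the falls. Of 24 autophagy and lysosome genes 6 were higher and 2 lower, with Wipi1 (0.56), the cathepsin gene Ctsb (0.51), Map1lc3a (0.37) and Lamp2 (0.35) among the rises. Of 23 immediate early genes 4 were higher and 4 lower: Ccn1 (0.78), Klf4 (0.68), Egr1 (0.53) and Dusp1 (0.46) rose, and Myc and Atf3 fell. In cholesterol synthesis and desaturation 4 of 19 genes were lower and 1 higher, with the desaturase genes Scd2 (-1.01) and Scd1 (-0.89) leading the falls. Of 31 cytosolic ribosomal protein genes 13 were lower and 0 higher, by a median of -0.13, with Rpl14 (-0.58), Rps25 (-0.45), Rps6 (-0.39) and Rps19 (-0.37) falling most. Right ventricles alone gave 4 lower and 0 higher for that list.

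Transcription factors and splicing regulators changed in small numbers. Of 28 cardiac transcription factors 6 were lower and 3 higher. Hey2, a Notch target gene of the compact ventricular wall, measured 8.58, 8.49 and 8.51 at day 3, against 10.11, 10.11 and 10.19 at E18.5 (-1.61 ± 0.10, limma adjusted p = 1.34e-10). The Iroquois genes split, Irx2 (-0.95) and Irx1 (-0.52) falling and Irx3 (0.51) rising. Nfix, a transcription factor gene of muscle development, rose by 1.04 in 5 of 5 probe sets. Of 18 muscle splicing regulators Rbfox1 rose by 0.94, and Mbnl3 (-0.50) and Ptbp2 (-0.46) fell. Among 14 Hippo and growth factor targets Ccn1 rose and the neuregulin receptor gene Erbb2 fell by 0.47. Of 8 genes of angiotensin and autonomic signalling 3 were called higher, Agt (0.51), Adra1b (0.45) and Edn1 (0.28), but 0 were with housekeeping scaling.

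**Figure D4:**
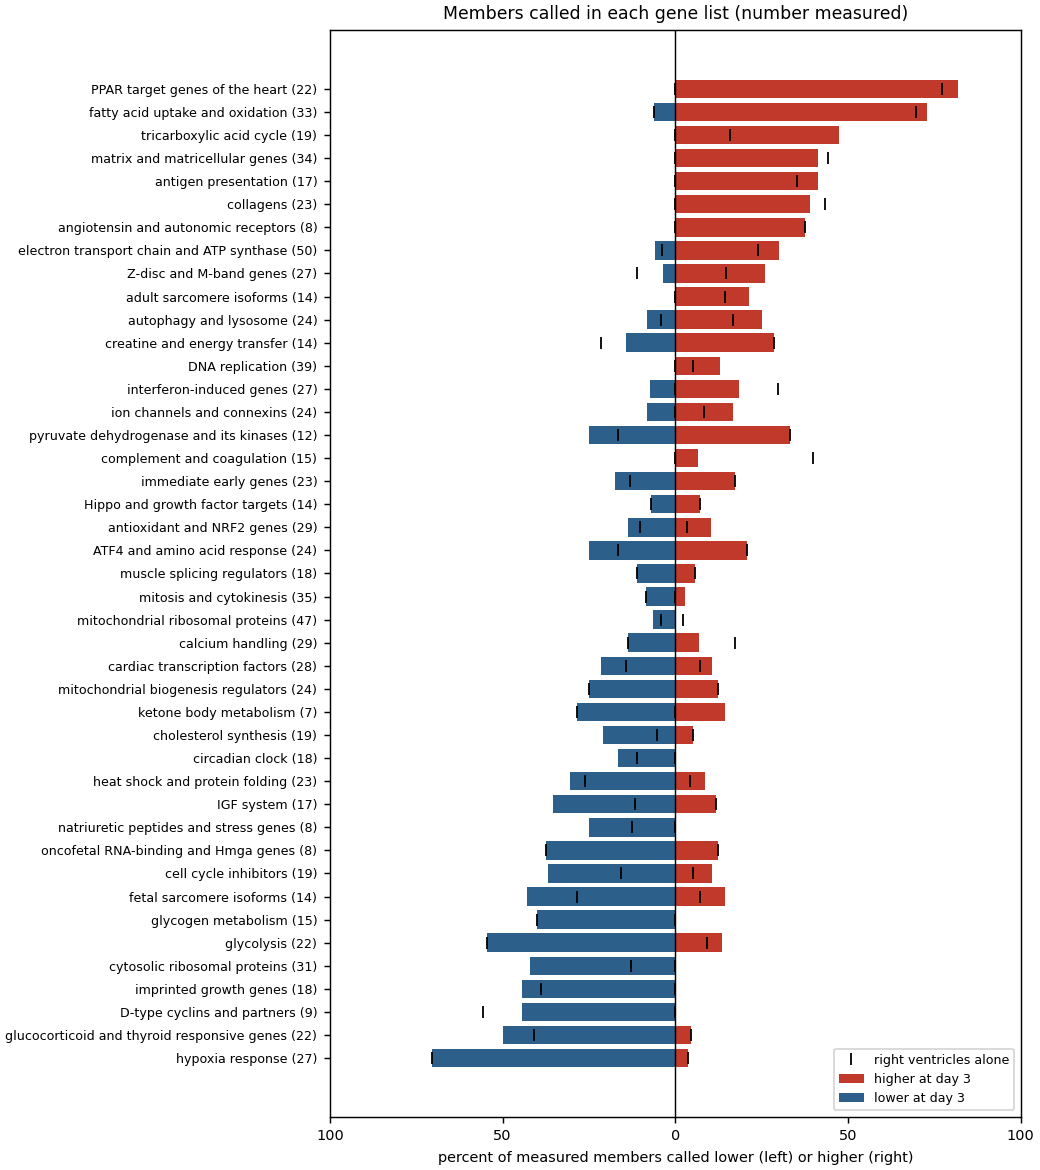
Percent of the measured members of each list called higher (right of 0) and lower (left of 0) at day 3, as bars for the averaged ventricles and ticks for right ventricles alone, with the number measured beside each name. The PPAR target list has 18 of 22 higher and 0 lower and the hypoxia list 1 of 27 higher and 19 lower, while DNA replication (5 and 0 of 39) and mitosis (1 and 3 of 35) have few calls.

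Matrix and vessel wall genes rose. Of 34 matrix genes 14 were higher and 0 lower (median 0.39), and of 23 collagen genes 9 were higher and 0 lower (median 0.37). Right ventricles alone gave 15 of 34 (median 0.69) and 10 of 23 (median 0.60) higher, left ventricles alone 8 of 34 (median 0.37) and 6 of 23 (median 0.29), and 0 were lower in either. Prelp, a leucine-rich proteoglycan gene, measured 8.22 ± 0.01 at day 3 and 6.66 ± 0.33 at E18.5 (1.56 ± 0.20, limma adjusted p = 6.72e-06). Fbln2 rose by 1.14, the elastin gene Eln by 1.04 and Aspn by 0.95. Among collagens Col8a1 rose by 1.39, Col14a1 by 1.12, Col5a3 by 1.02 and Col15a1 by 0.91. The fibroblast markers share Col1a1, Col1a2, Col3a1, Dcn, Lum and Postn with these lists, so that a common direction is partly built in. They averaged 11.02 to 11.23 at day 3, against 10.68 to 10.81 in E18.5 left ventricles and 10.40 to 10.44 in E18.5 right ventricles. Of the 12 markers 3 were called higher and 0 lower, against 5 higher in right and 0 in left ventricles alone. The 3 called were Thy1 (0.85), Col1a1 (0.80) and the platelet-derived growth factor receptor gene Pdgfra (0.39). The part of fibroblast number in the matrix values was not tested.

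Pericyte genes rose while Cnn1 fell. Of 12 smooth muscle and pericyte markers 5 were higher and 1 lower. Pdgfrb, the receptor gene of pericytes, measured 10.31, 10.39 and 10.50 at day 3, against 8.79, 8.87 and 9.38 at E18.5 (1.39 ± 0.14, limma adjusted p = 1.66e-07), and Rgs5 rose by 1.07 in 4 of 4 probe sets. Notch3 rose by 1.01 and Smtn by 0.91. Of 16 endothelial and endocardial markers 5 were higher and 2 lower. The tight junction gene Cldn5 measured 10.90, 10.88 and 10.91 at day 3, against 9.58, 9.73 and 9.67 at E18.5 (1.23 ± 0.19, limma adjusted p = 4.91e-05), Robo4 rose by 0.80, Tie1 by 0.56 and Kdr by 0.53, and Plvap, a gene of fenestrated and fetal vessels, fell by 0.52.

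Immune gene lists differed among themselves. Of 17 antigen presentation genes 7 were higher and 0 lower (median 0.35), against 6 higher in right and 3 in left ventricles alone, among them the immunoproteasome genes Psmb8 (0.81) and Psmb9 (0.72). H2-K1 and H2-D1, whose probes may cross-read between class I genes and alleles of an outbred strain, read 1.01 and 0.95 higher, and were not called in right ventricles alone. Of 27 interferon-induced genes 5 were higher and 2 lower, or 2 and 2 with housekeeping scaling, with Iigp1 (0.63), Irgm1 (0.55) and Ifitm3 (0.39) among the rises. Of 18 macrophage markers 0 were called, against 4 higher in right ventricles alone, and of 15 complement and coagulation genes 1 was higher, against 6 in right ventricles. The macrophage list averaged 6.75 to 6.94 at day 3, against 6.80 to 7.27 in E18.5 left ventricles and 6.57 to 6.59 in E18.5 right ventricles. Of 12 B and T lymphocyte markers 2 were higher and 3 lower (median -0.04), against 2 higher and 0 lower in right ventricles alone. The B cell gene Ms4a1 measured 5.87, 5.89 and 5.64 at day 3, against 4.27, 3.98 and 3.81 at E18.5 (1.78 ± 0.16, limma adjusted p = 4.00e-08), and Cd79b rose by 0.55. The falls were the T cell genes Cd3g (-1.07) and Cd3d (-0.74) and the B cell factor gene Pax5 (-0.32).

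Markers of neighbouring tissues, and some of the epicardium, were lower at day 3 mainly through the E18.5 left ventricles. Of 17 liver markers 9 were lower in the averages, 5 without E18.5 left ventricle 2 and 0 in right ventricles alone. Rag1, a gene of developing lymphocytes in thymus, was 3.13 to 3.67 at day 3, against 8.08, 8.09 and 5.23 in E18.5 left ventricles and 3.94, 4.12 and 5.07 in E18.5 right ventricles. Of 14 skeletal muscle markers 4 were lower in the averages, with Tnni2 (-1.45) and Mylpf (-1.35) the clearest, and 0 in right ventricles alone. Of 10 epicardium markers 4 were lower and 2 higher, against 0 lower and 2 higher in right ventricles. Upk3b (-0.93), Krt19 (-1.03) and Msln (-0.80) fell in the averages, and Aldh1a2 (0.94) and Krt18 (0.64) rose in both. Counts that rest on genes of these tissues therefore differ between the averages and the right ventricles.

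The change from E18.5 to day 3 was also compared between the ventricles. It differed in 56 genes (0.308%), with 47 (0.258%) lower and 9 (0.0495%) higher in the left ventricle's change and 39 (0.214%) differing at least 2-fold, and 2161 genes had an unadjusted p under 0.05. Igfbp6, an IGF binding protein gene, changed by -2.10 in left and by 0.66 in right ventricles, and its E18.5 means were 9.20 ± 0.59 in left and 6.87 ± 0.14 in right ventricles (left minus right change -2.76 ± 0.38, limma adjusted p = 1.35e-04). The E18.5 left ventricles alone stood high. The same held for the chemokine gene Ccl6 (-2.74), Bst1 (-2.55), known from bone marrow stroma, and the macrophage lectin gene Fcna (-2.44). For the liver genes Fga (-4.53) and Ahsg (-3.01) the E18.5 left ventricles stood highest, with means of 8.33 ± 2.04 and 8.91 ± 1.76. Their E18.5 right ventricles, with 3.74 ± 1.18 and 6.16 ± 0.40, also had means above those of day 3. In the other direction were the relaxin receptor gene Rxfp1 (1.25), the magnesium channel gene Mrs2 (0.98) and the phosphate transporter gene Slc20a1 (0.80), in which the E18.5 right ventricles had the highest mean of the 4 groups. The count depended on which arrays were in the fit. Without E18.5 left ventricle 2, 13 genes were called, Igfbp6, Ccl6, Bst1 and Fcna among them, and all 56 differences kept their sign. Fga then read -3.36, Ahsg -2.02, Rxfp1 1.27, Mrs2 0.84 and Slc20a1 0.65, none of them called. Without E18.5 replicate 1, 2 or 3 in both ventricles the counts were 23, 8 and 1032, and without day 3 replicate 1, 2 or 3 they were 9, 9 and 20, with 2 arrays fewer each time.

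The step at birth was set beside the other ventricle stages for genes named above. Angptl4 averaged 7.86 ± 0.06 at E14.5, 7.28 ± 0.11 at E18.5, 10.60 ± 0.16 at day 3 and 7.34 ± 0.38 in the adult, so that its day 3 level stood above every other stage. Pdk4 kept its level, with 11.88 ± 0.11 at day 3 and 11.92 ± 0.23 in the adult, and Plin5 was at 5.20 ± 0.09 at E14.5, 7.65 ± 0.17 at E18.5, 10.28 ± 0.09 at day 3 and 11.24 ± 0.04 in the adult. Slc2a1 stood at 13.27 ± 0.08 at E9.5, 11.65 ± 0.07 at E14.5, 10.86 ± 0.04 at E18.5, 8.83 ± 0.28 at day 3 and 9.25 ± 0.13 in the adult. Egln3 was lower at day 3 than on either side of it, with 10.76 ± 0.06 at E18.5, 9.20 ± 0.10 at day 3 and 10.99 ± 0.08 in the adult, and Bdh1 likewise, with 7.63 ± 0.03 at E18.5, 5.50 ± 0.39 at day 3 and 11.97 ± 0.24 in the adult. Mki67 stood at 9.75 ± 0.10 at E18.5, 9.82 ± 0.12 at day 3 and 5.62 ± 0.32 in the adult. These orders are descriptions, without a test of the other steps.

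**Figure D5:**
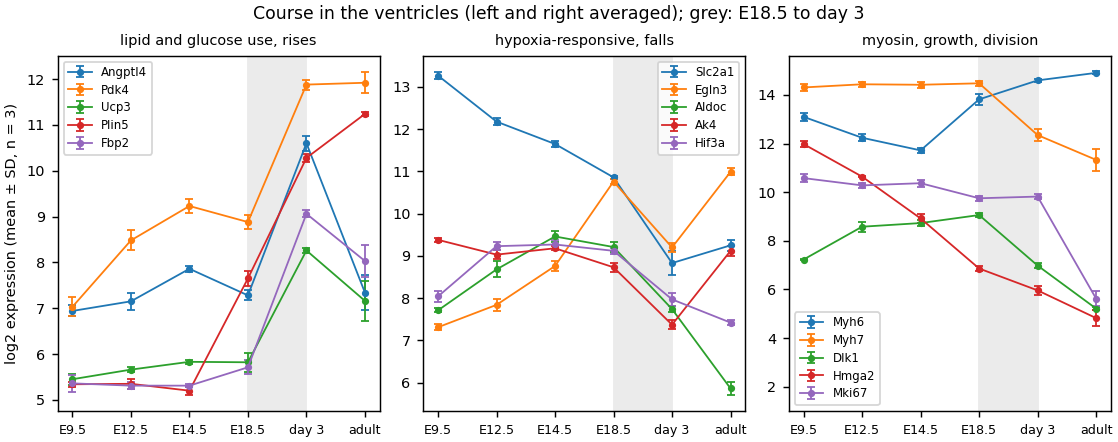
Log2 expression, mean ± SD of 3 replicates with left and right ventricles averaged, from E9.5 to the adult for 15 genes, with the step from E18.5 to day 3 in grey. Angptl4 peaks at day 3 (10.60), Egln3 dips there (9.20) and Mki67 stays level across birth (9.75 at E18.5, 9.82 at day 3).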

How the data were processed

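RNA of 45 samples in 15 groups of 3 was hybridised to 1-colour Affymetrix mouse arrays, and 4 groups are compared here. The deposited values are log2 expression after RMA, per the submitters' processing notes; its version is not given in the sources used here. RMA compresses differences at low and at very high signal. No scanner values were used, and the number of arrays limits the precision. The values ran from 2.07 to 15.2, the medians of the 12 arrays from 5.41 to 5.46, and 0 pairs of arrays were identical.

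Of 45101 probe sets, 34958 had 1 gene symbol, 932 several and 9211 none. Of those with 1 symbol, 34754 matched a RefSeq gene by gene identifier. Each of 18193 genes is represented by its brightest probe set on average across the 45 arrays; 9010 genes had several. Left and right ventricles of the same number were averaged. limma 3.58.1 in R 4.3.3 (lmFit, eBayes, Benjamini-Hochberg over all genes, two-sided) was fitted to 27 values of 9 stages (leaving 18 degrees of freedom), and to the 45 single arrays in 15 groups (leaving 30) for right ventricles alone and for the difference between ventricles, taking left and right arrays of a number as independent there although the sex-linked genes of day 3 go by number. The scripts were tested on simulated data, and summaries used pandas 2.3.3 with NumPy 2.4.6 in Python 3.11.15, and Matplotlib 3.10.9 for drawing. The labels call the samples biological triplicates.

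The comparison, the gene lists and the markers were chosen with earlier results of these data known. Genes named are the 12 largest rises and 12 largest falls among called genes whose replicates did not overlap and that were called in the same direction in right ventricles alone (predicted genes and receptors of smell passed over), up to 4 called members of each list in its main direction and 2 in the other, up to 6 genes per direction for the ventricle difference, and a fixed set given whatever its values. Acaa1a, Acaa1b, Acadl, Acadm, Acot1, Acot2, Adipoq, Car9, Cd36, Egln1, Ehhadh, Eno3, Fabp3, Hif1a, Hif3a, Higd1a, Ndrg1, Pfkfb3, Pfkfb4, Pfkl, Pfkp, Pgam1, Slc25a20, Ucp1, Uty and Vegfa were added after their values had been seen. Of the genes on the lists, 1134 were matched and 120 were not analysed here, H19, Cpt1b, Hbb-b1, Ddx3y and Gapdh among them. Alternatives changed the probe set rule, the scaling, the filter, the threshold, the samples in the fit and the replicates.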

Additional observations from a re-analysis of the deposited data

Results flagged for a closer look

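The change from E18.5 to day 3 differed between left and right ventricle, by the interaction term in limma with an adjusted p under 0.05, for 17 genes named by rule. Given as the left minus the right change, the negative values were -4.53 for Fga, -3.01 for Ahsg, -2.76 for Igfbp6, -2.74 for Ccl6, -2.55 for Bst1, -2.44 for Fcna, -2.23 for Msln, -1.99 for Lcn2, -1.73 for Nupr1 and -1.68 for Igfbp2. The positive ones were 1.25 for Rxfp1, 0.98 for Mrs2, 0.97 for Tmem130, 0.86 for Malt1, 0.80 for Slc20a1, 0.77 for Pnn and 0.57 for Hspa8. For the 10 negative genes the mean of the E18.5 left ventricles was the highest of the 4 groups. Igfbp6, Ccl6, Bst1, Fcna and Lcn2 were also called without E18.5 left ventricle 2, and the other 12 were not. Without that array the values of the 12 were -3.36 for Fga, -2.02 for Ahsg, -1.99 for Msln, -1.59 for Nupr1, -1.34 for Igfbp2, 1.27 for Rxfp1, 0.88 for Tmem130, 0.86 for Malt1, 0.84 for Mrs2, 0.68 for Pnn, 0.65 for Slc20a1 and 0.53 for Hspa8. Of all 56 genes called, 7 are on the epicardium, liver, macrophage, thymocyte, red cell or neutrophil lists, which hold 85 (0.467%) of the 18193 genes tested, and the part of such tissues in the difference was not tested. These 6 lists were picked from 22 marker lists with earlier results of these data known, and the other lists were not counted, so that the share is no test. No test for single outlying arrays was made within groups of 3 arrays.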

How the results depend on the processing

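Counts of calls moved with the unit tested, the threshold, the stages in the fit and the replicates. For the averaged ventricles, in place of 3682 genes, testing every probe set gave 6409 calls, the 12 arrays with a replicate block of left and right ventricle 6162, an adjusted p under 0.01 2145, a change of at least 2-fold 285, and leaving out single replicates 2522 to 3207. The correlation of left and right ventricle estimated for that block was negative, at -0.207. With only E18.5 and day 3 in the fit 5468 genes were called, 2824 higher and 2644 lower. For right ventricles, in place of 2819, every probe set gave 4967, only E18.5 and day 3 in the fit 3949, an adjusted p under 0.01 1603, a 2-fold change 279, and leaving out replicates 1963 to 2384. For the difference between ventricles, in place of 56, every probe set gave 91, an adjusted p under 0.01 12, no E18.5 left ventricle 2 gave 13, at least 2-fold 39, and leaving out replicates 8 to 1032. Of 272 genes named in the averaged comparison 259 were called, and of 4343 values under the alternatives 3818 kept direction and side of the threshold, 502 lost the call, 12 gained it and 11 changed sign. With the mean of all probe sets these were Dlst (-0.12), Hmmr (-0.04) and Hspa8 (-0.09). In right ventricles alone they were Nupr1 (0.24), Hspa8 (-0.06), Upk3b (0.05), Msln (0.31), Lcn2 (0.36), Cd3d (0.15) and Tnnt3 (0.01), and in left ventricles alone Edn1 (-0.04). In the comparison of right ventricles, Atp5g1 changed sign with the mean of all probe sets (-0.02). The cause was not tested. Same-numbered left and right arrays deviated together at day 3 with correlations of 0.167, 0.0274 and 0.0912 and at E18.5 with -0.236, -0.155 and -0.318, and 2 of 3 and 0 of 3 left arrays correlated best with their own number, so that the overall deviations did not tie the numbers. A replicate block across stages gave 3633, 2813 and 60 calls. The difference between ventricles takes the 45 arrays as independent, and with a random replicate block of left and right ventricle over them, an alternative chosen after seeing the data, 64 genes were called. Genes near the bottom of the scale and those above most others have little room to change, and 3 values per stage also limit the precision.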
